A study of Mus musculus with 8 samples.

Results

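The chromatin remodeler genes analysed here are the protein-coding genes of chromosomes 1 to 19 in GENCODE M21 whose symbols name subunits or relatives of the ATP-dependent remodeling machines: the Smarca to Smarce, Chd, Ino80, Arid1 to Arid5, Actl6 and Baz1 and Baz2 genes. The rule matched 43 of 20722 genes and used no measured value. The gene body was the longest protein-coding transcript of each gene on mm10. H3K36me3 was measured by ChIP–seq in mouse embryonic fibroblasts (MEFs) from a single E13.5 embryo, labelled Clone 1. The cells are i4F MEFs, which carry a doxycycline-inducible cassette for Oct4, Sox2, Klf4 and cMyc (OSKM). All 4 conditions shared this embryo, iPSC medium and 72 h of culture. MEF received neither agent, MEF B12 received 2 µM vitamin B12, OSKM received 1 µg/mL doxycycline, and OSKM B12 received both. Cells after 72 h of doxycycline are an unsorted population early in reprogramming.

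There was 1 H3K36me3 and 1 input library per condition, so differences between conditions cannot be checked against replicates and carry no p-value. The H3K36me3 libraries held between 29046913 and 33399267 tags after filtering. Intervals given beside ratios are 95% Poisson intervals from the estimated number of tags behind each value and cover counting error only. The OSKM library stood apart: its peaks covered 91.8 Mb of chromosomes 1 to 19, against 150.5 Mb for MEF, 163 Mb for MEF B12 and 163 Mb for OSKM B12. A lower level of the mark in the cells and a weaker immunoprecipitation in that library cannot be told apart, so OSKM B12 is also set directly against MEF. All 12 fibroblast markers examined had at least 10% of their body in peaks in each of the 4 libraries. Of 6 epithelial and 4 skeletal muscle markers, 0 had a peak in any library, and of 4 endothelial, 4 blood and 5 neural markers, 1 each (Tek, Cd34 and Tubb3) reached 10% in at least 1 library. Nanog and Dppa5a, markers of pluripotent cells, had no peak either, and Zfp42 was covered over 2.42% of its body in OSKM alone.

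H3K36me3 is deposited by SETD2, which travels with elongating RNA polymerase II, so the mark lies over the bodies of transcribed genes and is low at their start sites. Remodelers use ATP to slide, evict or exchange nucleosomes. They fall into families by their motor. SWI/SNF complexes, called BAF and PBAF in mammals, evict and slide nucleosomes at enhancers and promoters. ISWI motors space nucleosomes, CHD proteins include the motor of the NuRD complex, and INO80 complexes reposition nucleosomes and act on those that carry H2A.Z. In fibroblast reprogramming, BAF subunits, Chd1 and Ino80 are known as factors of pluripotent cells.

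The covered share and the density were measured for each gene body and library. The first is the percentage of its bases inside a peak. The second is the mean scaled pileup over all bases of the body, counting 0 outside peaks, in fragments per base per 1000000 tags. Since it is a mean per base, densities of genes of different length can be compared. Ratios of densities were taken as they are. Log2 differences were taken after a pseudocount of 0.05 was added to both densities, which pulls those of weakly marked genes towards 0, so that the 2 measures can rank genes differently. A gene was called marked when at least 10% of its body was covered in at least 1 of the 4 libraries.

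Most remodeler genes were marked: 38 of 43, or 88.4%, against 9619 of 20722 protein-coding genes, or 46.4%. A body at least 50% inside peaks was found for 23 of the 43 genes with MEF, 26 with MEF B12, 13 with OSKM and 27 with OSKM B12, against 22.2%, 24.3%, 11.9% and 24.6% of all protein-coding genes. The marked remodeler genes were long, with a median body of 59.2 kb against 20.7 kb for all marked genes. Their median covered share was 63.0% for MEF, 59.1% for MEF B12, 37.7% for OSKM and 60.0% for OSKM B12, against 48.2%, 52.1%, 28.9% and 52.6% for all marked genes. Their median density was 0.390 for MEF, 0.456 for MEF B12, 0.179 for OSKM and 0.454 for OSKM B12. In all marked genes it was 0.274, 0.325, 0.135 and 0.344 in the same order. The remodeler genes therefore carried more of the mark per base than the median marked gene in each library. This was not particular to them, since genes for partner subunits outside the naming rule, described below, stood at a similar level.

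**Figure D1:**
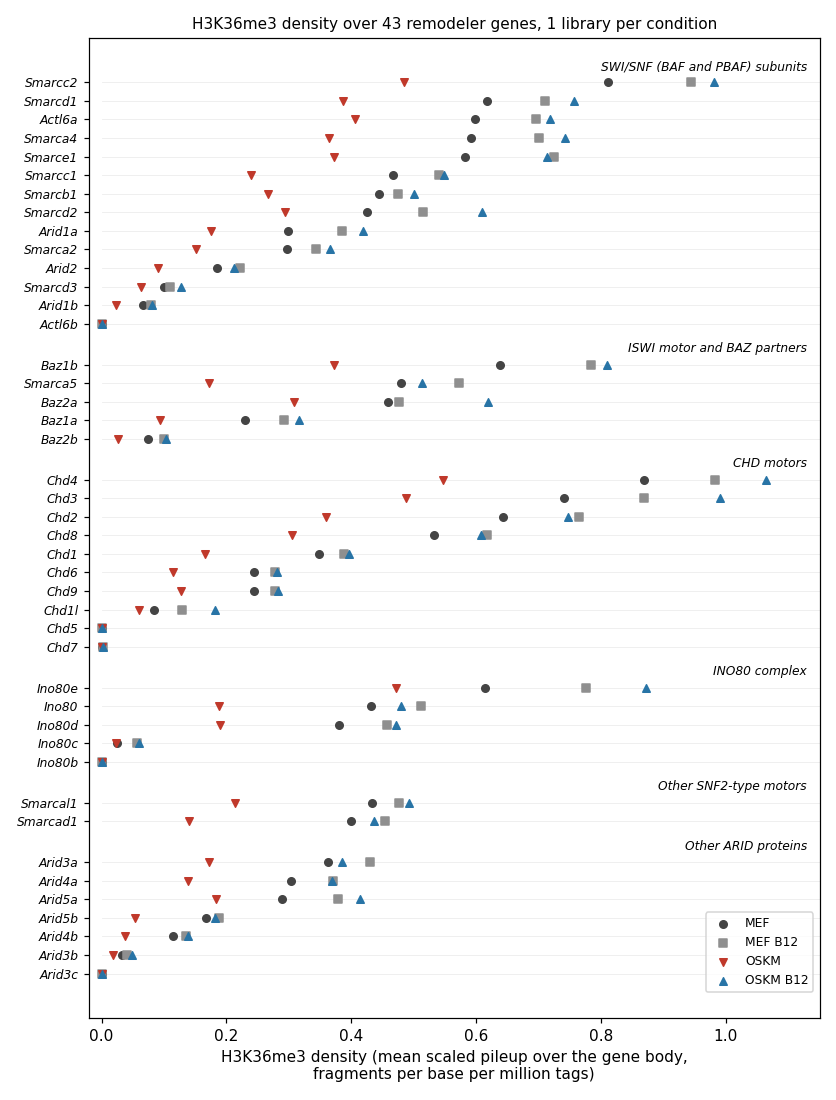
H3K36me3 density (horizontal axis, fragments per base per 1000000 tags) of each of the 43 remodeler genes, grouped by family and ordered by the MEF value, with 1 point per library. The OSKM point is the lowest of the 4 in each of the 38 marked genes, and the OSKM B12 point is the highest in 28 of them.

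The 5 unmarked genes were Chd5, Actl6b, Ino80b, Arid3c and Chd7, and several have close relatives that were marked. Chd5, the neuronal relative of the NuRD motors Chd3 and Chd4, had no peak in any library over its 51.5 kb body. Actl6b, the neuronal counterpart of the actin-related BAF subunit Actl6a, had none over 16.1 kb. Ino80b and Arid3c had none either, over bodies of 3.67 kb and 7.31 kb. Chd7, a CHD motor with roles in neural crest cells, had no peak in MEF or OSKM and was covered over 0.651% of its 176 kb body in MEF B12 and 0.430% in OSKM B12. The absence of a peak shows only that no enrichment was called at this depth.

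Among the SWI/SNF genes, 13 of 14 were marked, with Actl6b as the exception. Smarca4 and Smarca2 encode the alternative ATPases BRG1 and BRM. Smarca4 (chr9:21616169-21704230, plus strand) had a density of 0.592 for MEF, 0.701 for MEF B12, 0.365 for OSKM and 0.742 for OSKM B12. Smarca2 (chr19:26605052-26778321, plus strand) had 0.296, 0.344, 0.151 and 0.366 in the same libraries. Smarca4 was thus the more densely marked ATPase gene in each library, and both genes were lowest in OSKM.

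The scaffold and core subunits of BAF differed widely in density. Smarcc2, one of the BAF155/BAF170 scaffold pair, had a density of 0.811 for MEF, 0.944 for MEF B12, 0.485 for OSKM and 0.981 for OSKM B12. Its partner Smarcc1 had 0.467, 0.540, 0.240 and 0.549. Peaks covered Actl6a over 82.9% of its body in MEF and 80.6% in OSKM, the smallest difference in covered share among SWI/SNF genes covered over at least 50% in MEF. Its density was nevertheless 0.598 in MEF and 0.406 in OSKM, a ratio of 0.678 (0.622 to 0.740), since the peaks over it had a lower average pileup.

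The ARID subunits, which set complex identity, spanned a wide range of density. Arid1a, which defines canonical BAF together with its paralog Arid1b, had a density of 0.299 for MEF, 0.385 for MEF B12, 0.176 for OSKM and 0.418 for OSKM B12. Arid1b (chr17:4995074-5347656) is the longest remodeler gene at 353 kb and had 0.067, 0.080, 0.024 and 0.081. Arid2, the PBAF counterpart, lay between them at 0.185 in MEF and 0.090 in OSKM.

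The signal over Smarcd3, a BAF60 subunit gene known from heart and muscle, lay at its end. It had 1 peak in each library. In MEF this peak was 8.33 kb long, began 27.8 kb from the start of a 31.8 kb body and ran 4.34 kb past its end. Its covered share was between 11.1% and 12.5% in the 4 libraries. Whether these tags belong to transcription of Smarcd3 or of sequence downstream was not tested. By contrast, its paralogs Smarcd1 and Smarcd2 were covered over 78.2% and 48.2% in MEF.

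In the ISWI family, 5 of 5 genes were marked. Smarca5 encodes SNF2H, the ISWI motor, and the Baz genes encode its large partners. Smarca5 (chr8:80698507-80739497, minus strand) was covered over 82.2% of its body for MEF, 89.1% for MEF B12, 37.6% for OSKM and 85.7% for OSKM B12. Its density was 0.480, 0.572, 0.172 and 0.514 in the same order. The OSKM value stood at 0.358 of MEF (0.330 to 0.388). With the pseudocount its log2 difference was -1.26, the lowest of any marked remodeler gene and at percentile 7.28 of the 9619 marked genes. Without the pseudocount, Arid5b, Arid4b, Smarcad1, Arid1b and Baz2b had lower ratios, from 0.319 to 0.353.

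Baz1b, whose product WSTF pairs with SNF2H in the WICH complex, was the most densely marked gene of the group at 0.638 for MEF, 0.785 for MEF B12, 0.373 for OSKM and 0.809 for OSKM B12. Baz1a, the ACF1 subunit, had 0.230, 0.292, 0.094 and 0.316. The OSKM B12 value of Baz1a was 3.37 times that of OSKM, and its log2 difference of 1.35 was among the 3 largest for this comparison with the pseudocount. Baz2a, the TIP5 subunit of the nucleolar complex NoRC, had 0.459, 0.477, 0.308 and 0.619. Baz2b was covered over at most 19.4% of its 226 kb body.

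Of the 10 CHD genes, 8 were marked. Chd4, the main motor of NuRD, was the most densely marked remodeler gene in each library. Chd4 (chr6:125095981-125130591, plus strand) had a density of 0.869 for MEF, 0.983 for MEF B12, 0.547 for OSKM and 1.06 for OSKM B12. Its MEF value was at percentile 99.5 of the 9619 marked genes. It was covered over 92.2%, 91.7%, 86.7% and 92.5% of its body, so that its domain in OSKM was nearly as wide as in the other libraries but lower. Chd3, the second NuRD motor, had 0.741, 0.870, 0.488 and 0.990.

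Chd2, a CHD1-class motor, had 0.643 for MEF, 0.765 for MEF B12, 0.359 for OSKM and 0.748 for OSKM B12. Its relative Chd1, which is known for keeping embryonic stem cell chromatin open, had 0.349, 0.389, 0.166 and 0.397. Both genes had a density in OSKM B12 within the range set by MEF and MEF B12 or just above it. Chd8, which binds CTCF and β-catenin, had 0.532, 0.617, 0.305 and 0.607. Chd6 and Chd9 were alike, with 0.244 and 0.243 in MEF and 0.115 and 0.128 in OSKM. Chd1l, a motor that responds to poly(ADP-ribose) at DNA breaks, was the most weakly marked of the 8, with 0.084, 0.128, 0.060 and 0.181. It was covered over 20.2% of its body in MEF and 39.5% in OSKM B12, and its density in OSKM B12 was 2.16 times that in MEF (1.93 to 2.42).

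Of the INO80 genes, 4 of 5 were marked. Ino80, the motor (chr2:119373042-119477687, minus strand), had a density of 0.432 for MEF, 0.512 for MEF B12, 0.188 for OSKM and 0.479 for OSKM B12. Its covered share was 70.3%, 73.2%, 39.8% and 70.8%. Ino80d had 0.380, 0.457, 0.189 and 0.471 in density. Ino80e, a short gene of 10.3 kb with 16.9% of its body in another protein-coding gene, had 0.614, 0.776, 0.471 and 0.872. It was the only gene covered over at least 50% in MEF whose covered share was higher in OSKM, at 81.4% and 85.1%. Ino80c passed the 10% filter only in the 2 B12 libraries, with 5.28% covered for MEF, 11.0% for MEF B12, 5.50% for OSKM and 12.9% for OSKM B12. Its density was 0.025 in MEF and 0.024 in OSKM, a ratio of 0.964 whose interval of 0.644 to 1.44 spans 1.

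The remaining motors and ARID genes were more varied. Smarcad1, which remodels heterochromatin behind replication forks, had a density of 0.399 for MEF, 0.454 for MEF B12, 0.140 for OSKM and 0.437 for OSKM B12. Its OSKM value was 0.350 of MEF (0.328 to 0.374), and its OSKM B12 value was 3.13 times that of OSKM (2.93 to 3.34). Smarcal1, which reanneals DNA at stalled forks, had 0.434, 0.476, 0.213 and 0.492. Arid5b, a developmental regulator and partner of the demethylase PHF2, had 0.168, 0.187, 0.053 and 0.181. Arid3b passed the filter in OSKM B12 alone, at 10.5% of its body, and had a density of at most 0.049. Arid3a, an ARID transcription factor, had 0.362, 0.430, 0.172 and 0.385.

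From MEF to OSKM, density was lower in 38 of the 43 remodeler genes, and the other 5 were the unmarked genes, at 0 in both libraries. A lower density was also found in 96.8% of all marked genes, so the direction was that of the library as a whole. The median log2 difference was -0.70 over the 38 marked remodeler genes, with quartiles of -0.87 and -0.56. Over all marked genes it was -0.70, with quartiles of -0.92 and -0.53. Density in OSKM was lower than in MEF by 2-fold or more in 15 of the 38, against 45.1% of all marked genes, from Arid5b at 0.319 and Arid4b at 0.323 to Smarcal1 at 0.492 and Ino80d at 0.497. With the pseudocount the log2 difference reached -1 in 4 of the 38, Smarca5, Smarcad1, Arid5b and Ino80, against 18.5%. OSKM was the lowest of the 4 densities in 38 of 38, against 95.6% of all marked genes.

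By family, the median log2 difference with the pseudocount from MEF to OSKM was -0.63 in SWI/SNF, -0.70 in ISWI and BAZ, -0.72 in CHD, -0.60 in INO80, -1.06 in the 2 other SNF2-type motors and -0.90 in the other ARID genes. A density lower by 2-fold or more was found in 2 of 13 SWI/SNF genes (Arid1b at a ratio of 0.352 and Arid2 at 0.485), 3 of 5 ISWI and BAZ genes, 2 of 8 CHD genes (Chd6 at 0.471 and Chd1 at 0.476), 2 of 4 INO80 genes, both other motors and 4 of 6 other ARID genes. Over all marked genes the share was 45.1%, and the median log2 difference was -0.70, with quartiles of -0.92 and -0.53. With 2 to 13 marked genes per family, differences between families were not tested. The log2 differences smallest in size were those of Ino80c at -0.02, Chd1l at -0.28 and Arid3b at -0.29, all of them weakly marked in MEF, where the pseudocount weighs most. By ratio the smallest differences were those of Ino80c at 0.964, Ino80e at 0.768 and Chd1l at 0.720, and Arid3b stood at 0.542 (0.421 to 0.697). The covered share was lower in OSKM in 36 of 38, against 93.4% of all marked genes, and Ino80e and Ino80c were the 2 exceptions.

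The difference lay in width for some genes and in height for others. Pileup is an average per peak, so its value at a base reflects the whole peak, and peaks differ in extent between libraries. Over bases inside a peak in all 4 libraries, the ratio of scaled pileup in OSKM to MEF had a median of 0.752 over the 38 genes and ranged from 0.665 in Chd4 to 1.05 in Chd1l. Smarca5 stood at 0.758 there, although its density was at 0.358 of MEF. For Smarca5 the lower density was thus mainly a smaller covered share, while for Chd4 it was almost wholly a lower pileup over the same bases, with a density at 0.629 of MEF. The median over all marked genes with such bases was 0.782. The balance of width and height varied with density in MEF. Across the 38 genes, Spearman's rho between MEF density and the log2 covered share ratio from MEF to OSKM was 0.53. With the log2 pileup ratio over shared bases it was -0.66. Over all marked genes with such values, rho was 0.54 and -0.54. The part of the calling threshold in this was not tested.

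**Figure D2:**
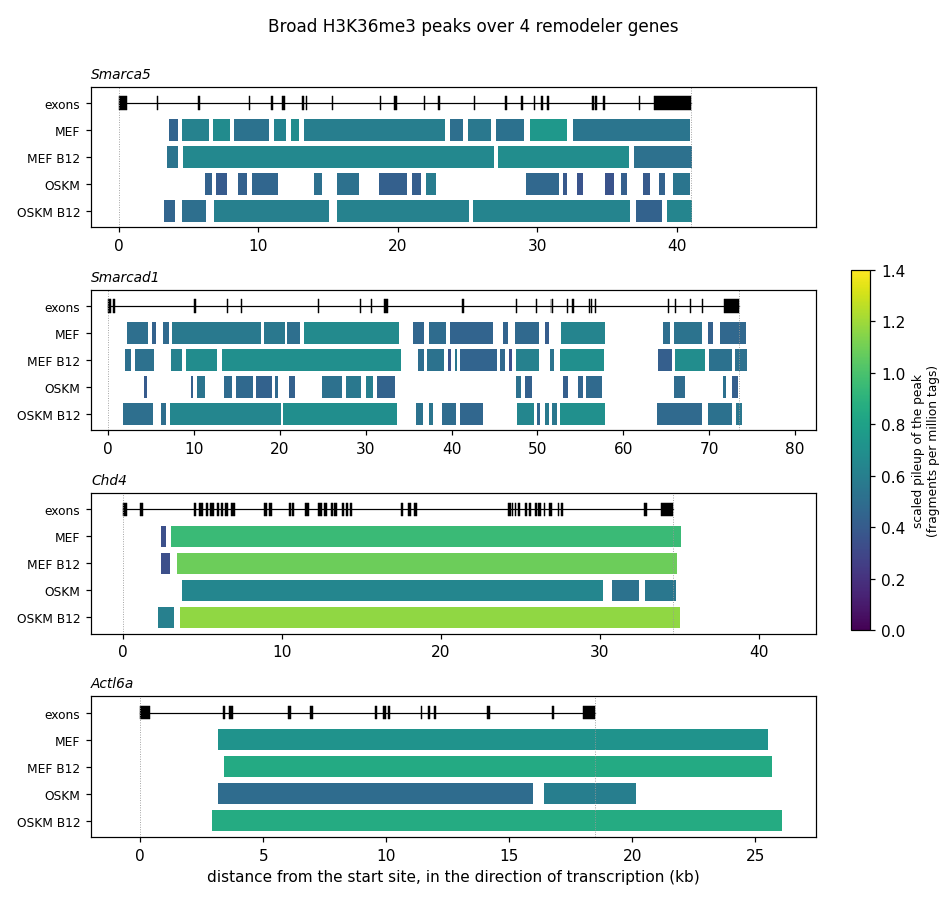
Broad H3K36me3 peaks over Smarca5, Smarcad1, Chd4 and Actl6a, plotted by distance from the start site in kb, with exons above and colour giving the scaled pileup of each peak. In OSKM, Smarca5 has 17 short peaks of at most 2.30 kb in place of the 12 peaks of up to 10.2 kb in MEF. Chd4 has 3 peaks of up to 26.5 kb in OSKM, at a lower pileup, and 2 of up to 32.1 kb in MEF.

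Peaks were shorter and in most of these genes more numerous in OSKM. The 38 genes held 496 peaks (MEF), 460 (MEF B12), 589 (OSKM) and 494 (OSKM B12), and the bases covered came to 1425 kb, 1497 kb, 923 kb and 1512 kb. More peaks were thus called in OSKM over fewer bases. The longest peak of a gene had a median length of 10.1 kb for MEF, 14.4 kb for MEF B12, 5.55 kb for OSKM and 11.3 kb for OSKM B12. It was shorter in OSKM than in MEF in 36 of 38 genes, against 95.1% of the 9043 marked genes with a peak in all 4 libraries. The number of peaks was higher in OSKM in 24 genes and lower in 8, against 45.3% and 31.2% of the 9043. Over Smarcc2, MEF had 1 peak of 31.2 kb, MEF B12 1 of 31.3 kb, OSKM 10 of at most 8.67 kb and OSKM B12 1 of 31.4 kb. In Chd8 the longest peak was 39.1 kb for MEF, 36.8 kb for MEF B12, 8.58 kb for OSKM and 39.8 kb for OSKM B12.

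The mark began downstream of the start site. The first covered base lay at a median of 4.59 kb from the start for MEF, 4.90 kb for MEF B12, 6.30 kb for OSKM and 4.08 kb for OSKM B12. In the 9043 marked genes with a peak in all 4 libraries these medians were 3.79 kb, 3.56 kb, 4.82 kb and 3.47 kb. The first covered base was further from the start in OSKM than in MEF in 29 of 38 genes and nearer in 9, against 75.7% and 22.7% of the 9043. In OSKM B12 it was nearer than in OSKM in 32, against 82.9%. These shifts of the border were thus close to those of marked genes at large. In Chd1 the domain began 2.93 kb from the start in MEF and 20.4 kb in OSKM, and in Arid5b 3.80 kb and 35.5 kb. RefSeq start windows of 300 bases, from 250 before to 50 after a start, were given for 32 of the 43 genes. Of these 39 windows, a peak touched 1 for MEF, 2 for MEF B12, 0 for OSKM and 2 for OSKM B12, all of them in Chd9 and Smarcd2. The windows touched, chr8:90931999-90932298 in Chd9 and chr11:106267583-106267882 in Smarcd2, lay inside the measured body and not at its start. The share over the windows of all genes is not given here.

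**Figure D3:**
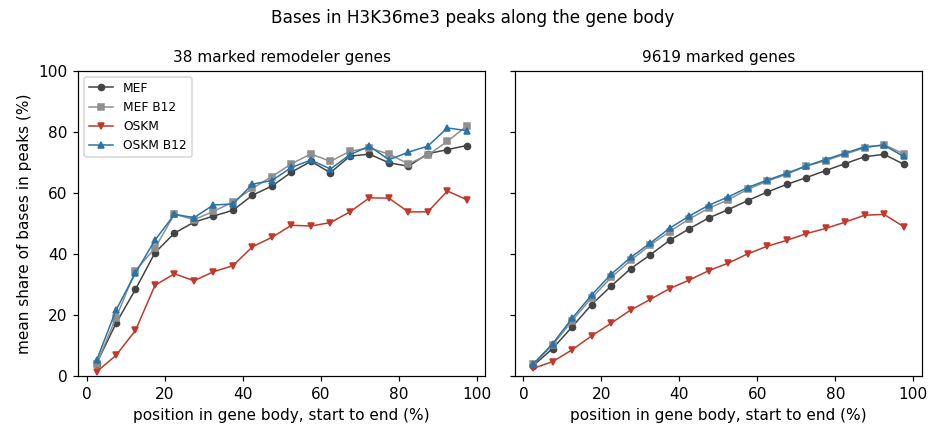
Mean share of bases inside peaks (%) in 20 equal bins of the gene body from start to end, for the 38 marked remodeler genes and for all 9619 marked genes, 1 line per library. In both panels the lines climb from the start towards the end of the body and the OSKM line is the lowest throughout.

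Coverage climbed along the body in each library. In MEF the mean covered share of the remodeler genes was 4.0% in the first of 20 bins, 46.8% in the fifth and 75.5% in the last. In OSKM it was 1.3%, 33.5% and 57.8% in the same bins. All marked genes stood at 3.4%, 29.5% and 69.4% in MEF, so the remodeler genes reached high coverage earlier in relative position. This did not hold in kb. In MEF their first covered base lay at a median of 4.59 kb, against 3.79 kb in the 9043 marked genes with a peak in all 4 libraries. Their bodies were longer, and the part of length in the relative position was not tested.

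Exons were more often inside peaks than introns. Exons here are those of all protein-coding transcripts of a gene that lie within its body, and the remaining bases are introns. The longest transcript alone has few exons in some genes, with 5 in Smarcc2 and 2 in Ino80c. In the marked remodeler genes, 76.6% of exon bases and 43.6% of intron bases were covered in MEF, and 61.9% and 27.2% in OSKM. The ratio of exon to intron coverage was 1.75 for MEF, 1.75 for MEF B12, 2.27 for OSKM and 1.71 for OSKM B12. All marked genes had 1.82, 1.75, 2.198 and 1.74. The higher ratio in OSKM was therefore shared with marked genes at large.

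With vitamin B12 added to OSKM, density was higher in 38 of 38 marked remodeler genes, against 98.8% of all marked genes, and in the unmarked Chd7. The median log2 difference was 0.97 over the marked remodeler genes, with quartiles of 0.89 and 1.05, and 0.98 over all marked genes. Density was higher by 2-fold or more in 31 of 38, against 78.0% of all marked genes. The highest ratios were those of Baz2b at 3.94, Arid4b at 3.73 and Arid1b at 3.44, and the lowest those of Actl6a at 1.77, Ino80e at 1.85 and Smarcb1 at 1.88. With the pseudocount the log2 difference reached 1 in 17 of 38, against 46.2%. It was then highest in Smarcad1 at 1.36, Baz1a at 1.35 and Smarca5 at 1.35, and lowest in the weakly marked Arid3b at 0.54, Ino80c at 0.57 and Smarcd3 at 0.65, whose ratios were 2.76, 2.51 and 2.03. The covered share was higher in 38 of 38, against 96.5% of all marked genes. Smarcad1 and Smarca5 also had the lowest log2 differences from MEF to OSKM with the pseudocount, and both comparisons share the OSKM library.

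**Figure D4:**
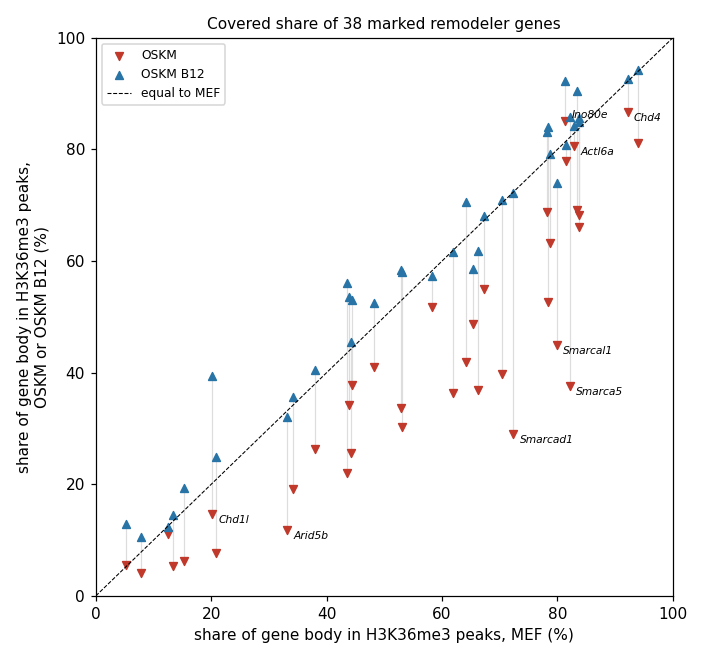
Share of the gene body inside H3K36me3 peaks in OSKM (down triangles) and OSKM B12 (up triangles) against the share in MEF, both axes in %, for the 38 marked remodeler genes, with grey lines joining the values of a gene. Smarca5, Smarcad1 and Smarcal1 lie farthest below the line of equality in OSKM, at 37.6%, 29.1% and 45.0%, and at 85.7%, 72.2% and 74.0% in OSKM B12.

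Set directly against MEF, which leaves out the OSKM library, OSKM B12 had a higher density in 38 of 38 marked remodeler genes, against 90.9% of all marked genes. The unmarked Chd7 was higher too. The median log2 difference was 0.25 in the marked remodeler genes and 0.26 in all marked genes, and a ratio of 2 or more was reached by 2 of 38, Ino80c at 2.41 (1.71 to 3.41) and Chd1l at 2.16, against 5.89% of all marked genes. With the pseudocount 0 of 38 reached a log2 difference of 1, against 2.07%. The covered share was higher than in MEF in 29 of 38, against 71.0%. Smarca5 stood at 0.09, Arid3a at 0.08 and Arid5b at 0.09, the lowest log2 differences of the 38.

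Without doxycycline, MEF B12 exceeded MEF by less. Density was higher in MEF B12 than in MEF in 38 of 38 marked remodeler genes, against 90.5% of all marked genes, and in the unmarked Chd7. The median log2 difference was 0.21 in the marked remodeler genes and 0.21 in all marked genes, and a ratio of 2 or more was reached by 1 of 38, Ino80c at 2.29 (1.62 to 3.25), against 3.94%. Ino80c passed the 10% filter only in the B12 libraries, so the filter itself favoured a value above MEF. With the pseudocount 0 of 38 reached a log2 difference of 1, against 1.17%. The covered share was higher in 28 of 38, against 70.5% of all marked genes, and lower in the other 10. The log2 differences ran from 0.05 in Baz2a to 0.51 in Ino80c. Of the 38 genes, 28 had their highest density in OSKM B12 and 10 in MEF B12, against 61.0% and 35.8% of all marked genes.

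Differences from MEF to OSKM varied with base composition. Gene bodies with little G+C had lower values in OSKM relative to MEF than bodies rich in G+C. The median log2 difference was -1.08 in the 4 marked remodeler genes below 40% G+C, -0.77 in the 16 between 40% and 45%, -0.63 in the 11 between 45% and 50% and -0.54 in the 7 at 50% or above. All marked genes followed the same order, with -0.99, -0.80, -0.65 and -0.56 in 931, 2974, 2842 and 2872 genes. Across the 38 genes Spearman's rho between G+C and the log2 difference was 0.65 (Pearson's r 0.55), and 0.42 across the 9619. These are correlations across genes of the same pair of libraries, and genes are not independent replicates. Longer genes had lower values too (rho -0.59 over the 38 and -0.16 over the 9619), and G+C and length were themselves related at -0.64. Arid3a went against the order, with 55.9% G+C and a log2 difference of -0.89.

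The positive relation was seen for the covered share and not for the pileup over shared bases. Across the 38 genes, rho between G+C and the log2 ratio of the covered share was 0.58, and with the pileup ratio over bases in a peak in all 4 libraries it was -0.29. Length had a rho of -0.70 with the covered share ratio over the 38. Over the 9066 marked genes with such a ratio, rho was 0.47 for G+C and -0.37 for length. For the density ratio without the pseudocount, rho over the 38 was 0.64 for G+C and -0.75 for length. The parts of G+C and length were not separated. Of the peak bases of MEF inside remodeler gene bodies, the 0.870 Mb also called in OSKM held 45.0% G+C, and the 0.556 Mb not called in OSKM held 41.9%. In all genes these shares were 47.0% and 43.4%. The bases not called in OSKM had the lower G+C content in 31 of the 32 remodeler genes with at least 1 kb of each kind, and Arid3a was the exception. This count was not made over all marked genes, so it cannot be read as particular to remodeler genes. From MEF to MEF B12, rho between G+C and the log2 density difference was -0.01 over the 38. From MEF to OSKM B12, which does not involve the OSKM library, it was 0.42. From OSKM to OSKM B12 it was -0.51 over the 38 and -0.13 over the 9619. With the pileup ratio over shared bases in that comparison, rho was 0.58 over the 38 and 0.42 over the 8859 marked genes with such bases. The part of base composition in library preparation or peak calling was not tested.

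**Figure D5:**
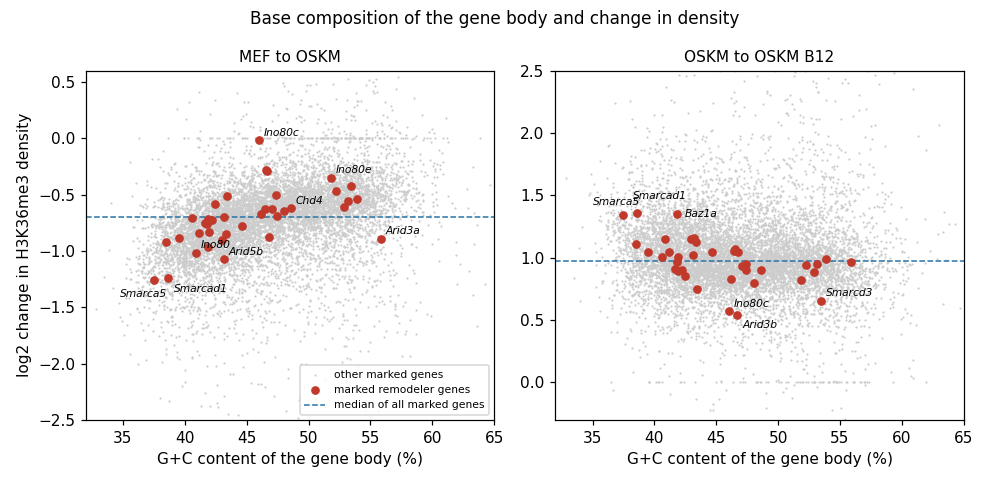
Log2 difference in density (with the pseudocount) against the G+C content of the gene body (%) from MEF to OSKM (left) and from OSKM to OSKM B12 (right), for the 38 marked remodeler genes (large points) and the other marked genes (small points, of which 79 and 83 lie outside the axes), with the median of all marked genes as a dashed line. Smarca5 and Smarcad1, at 37.5% and 38.6% G+C, are the lowest remodeler genes on the left and among the highest on the right.

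Windows from stretches that were or were not called in OSKM show the sequences behind these values. From the 23 genes covered over at least 50% in MEF, the 3 with the largest and the 3 with the smallest loss of covered share from MEF to OSKM were taken, a choice made after the values were seen. For Smarca5, Smarcad1 and Smarcal1 the stretch is the longest in a peak in MEF, MEF B12 and OSKM B12 but not in OSKM, and for Ino80e, Actl6a and Chd3 the longest in a peak in all 4 libraries. Each window is the 180 intronic bases whose G+C content was closest to that of its stretch, read from the GRCm38 genome in the sense of the gene. Capitals mark runs of at least 4 G or C.
Smarca5, intron 15, chr8:80710705-80710884, minus strand, stretch of 1.88 kb with 40.4% G+C, not called in OSKM: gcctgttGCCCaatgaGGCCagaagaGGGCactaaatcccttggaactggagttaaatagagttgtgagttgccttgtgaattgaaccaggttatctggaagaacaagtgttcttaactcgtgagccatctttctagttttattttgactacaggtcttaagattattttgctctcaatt
Smarcad1, intron 10, chr6:65084047-65084226, plus strand, stretch of 2.72 kb with 38.0% G+C, not called in OSKM: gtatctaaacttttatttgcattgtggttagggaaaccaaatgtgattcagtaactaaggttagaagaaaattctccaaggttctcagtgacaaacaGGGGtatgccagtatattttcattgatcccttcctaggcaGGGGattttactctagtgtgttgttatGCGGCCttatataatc
Smarcal1, intron 9, chr1:72610370-72610549, plus strand, stretch of 1.20 kb with 50.1% G+C, not called in OSKM: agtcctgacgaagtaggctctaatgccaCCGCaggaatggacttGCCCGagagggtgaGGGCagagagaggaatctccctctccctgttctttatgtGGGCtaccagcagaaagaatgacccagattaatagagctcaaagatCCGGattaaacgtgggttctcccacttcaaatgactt
Ino80e, intron 4, chr7:126853648-126853827, minus strand, stretch of 8.35 kb with 52.7% G+C, called in all 4: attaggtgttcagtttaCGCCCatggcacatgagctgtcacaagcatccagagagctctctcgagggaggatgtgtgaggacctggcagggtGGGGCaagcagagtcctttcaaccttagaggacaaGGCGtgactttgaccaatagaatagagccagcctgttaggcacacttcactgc
Actl6a, intron 3, chr3:32712377-32712556, plus strand, stretch of 12.5 kb with 43.0% G+C, called in all 4: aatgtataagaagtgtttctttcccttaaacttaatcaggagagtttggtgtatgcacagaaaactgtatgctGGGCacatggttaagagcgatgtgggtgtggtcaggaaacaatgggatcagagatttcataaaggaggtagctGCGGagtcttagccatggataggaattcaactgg
Chd3, intron 39, chr11:69344773-69344952, minus strand, stretch of 19.7 kb with 52.5% G+C, called in all 4: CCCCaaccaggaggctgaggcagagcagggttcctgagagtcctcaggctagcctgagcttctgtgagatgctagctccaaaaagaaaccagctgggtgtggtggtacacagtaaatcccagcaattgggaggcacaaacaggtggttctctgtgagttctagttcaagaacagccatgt

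The 6 windows do not split cleanly. The Smarcal1 stretch, not called in OSKM, held more G+C than the Actl6a stretch, which was called in all 4 libraries, so the order seen over groups of genes does not hold for each stretch.

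Genes for partner subunits outside the naming rule followed the same course. Of 65 such genes of BAF, NuRD, ISWI, INO80, SRCAP and TIP60 complexes and other SNF2-type motors, 59 were marked, or 90.8%. Median density of the marked ones was 0.366 for MEF, 0.427 for MEF B12, 0.188 for OSKM and 0.444 for OSKM B12. The marked remodeler genes had 0.390, 0.456, 0.179 and 0.454. From MEF to OSKM density was lower in 58 of the 59, against 96.8% of all marked genes, with a median log2 difference of -0.69. It was lower by 2-fold or more in 21, against 45.1%, and the log2 difference reached -1 in 8, against 18.5%. The largest log2 differences were those of Pole3, a histone-fold subunit of CHRAC, at -2.48, and the SNF2-type motors Hltf at -1.35 and Hells at -1.13. Pole3 has a body of 2.42 kb and was at 53.2% covered in MEF and 0 in OSKM. The TIP60 subunit Mrgbp was the exception in direction at 0.30, and Mcrs1 at -0.25 and the INO80 helicase Ruvbl2 at -0.31 came next. From OSKM to OSKM B12 density was higher in 59 of 59, against 98.8% of all marked genes, with a median log2 difference of 0.94.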

How the data were processed

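H3K36me3 and input ChIP–seq libraries of 4 conditions were grouped by their labels. Per the file headers and the submitters' processing notes, the authors aligned reads with bowtie 0.12.9 to mm10 and called broad peaks per library with MACS2 2.2.6 against its input, at q-value thresholds of 0.05 and 0.1. The deposited pileup is a signal that gives the average height of extended fragments across a peak. The deposited fold enrichment is a ratio to the local input, and significance is deposited as −log10 p-value and −log10 q-value. The labels name the antibody as against H3K3me3 and the immunoprecipitation as H3K36m3, and the files were taken as H3K36me3.

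From these files, pileup was scaled to 1000000 H3K36me3 tags and integrated over gene bodies with Python 3.11, numpy 2.4.6 and scipy 1.17.1. Log2 differences used a pseudocount of 0.05. Covered shares and densities are lower where signal falls below the calling threshold, so depth limits what is detectable. The interval arithmetic was checked on 200 simulated cases, of which 0 differed. G+C was read from GRCm38.p6, the assembly of mm10. With 1 library per condition no test was run.

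The members, their families and the partner list were chosen with earlier results of these data known. The genes named were those with an ATPase motor, the unmarked genes, the 3 highest and lowest in MEF density, and the 3 largest and smallest differences from MEF to OSKM and from OSKM to OSKM B12. Partner genes were named for the 3 largest and 3 smallest differences. Other genes were named after their values were seen, as paralogs, for domain structure or for the highest and lowest ratios without the pseudocount, and counts by those ratios were also chosen after the data were seen. The alternatives tried were stricter and equal peak sets, joined peaks, other pseudocounts and scalings, bases of overlapping genes left out, bases called in all 4 libraries, and other filters on marked genes.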

Additional observations from a re-analysis of the deposited data

Results flagged for a closer look

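In 10 of the 38 marked remodeler genes, the covered share was lower with vitamin B12 in MEFs but higher with vitamin B12 in doxycycline-treated cells. The difference between the 2 effects was not tested, since each condition had 1 library, and the same opposition was found in 28.5% of the 9619 marked genes. Smarcb1, a core BAF subunit, had the largest loss in MEFs, with -8.52 percentage points in MEF B12 against MEF and 9.75 in OSKM B12 against OSKM. Smarcal1 stood at -3.97 and 29.1, Chd1 at -2.73 and 25.2, Baz2a at -1.97 and 5.54, and Chd8 at -1.76 and 13.2. In Actl6a the values were -1.39 and 3.51, in Smarcd3 -0.639 and 1.33, in Chd3 -0.471 and 2.91, in Chd4 -0.430 and 5.80, and in Smarcc2 -0.295 and 13.1. Density did not share the opposition: it was higher with B12 in both settings in 38 of 38. Of all marked genes, 90.5% had a higher density with B12 in MEFs and 98.8% in doxycycline-treated cells. Without division by tags, density was higher in MEF B12 than in MEF in 33 of the 43 remodeler genes.

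Smarca1, the second ISWI motor, lies on chromosome X (chrX:47809368-47892519) and falls outside the rule. Its 83.2 kb body was covered over 18.1% for MEF, 23.2% for MEF B12, 1.60% for OSKM and 15.3% for OSKM B12.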

How the results depend on the processing

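No paired analysis was possible because there was only 1 library per condition. Density was lower in OSKM than in MEF in 34 to 38 genes under the alternatives run, higher in OSKM B12 than in OSKM in 35 to 39, and higher in MEF B12 than in MEF in 33 to 39.

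The median log2 differences kept their sign under each alternative, and their sizes moved beyond counting error as follows, in the order MEF to OSKM, OSKM to OSKM B12 and MEF to MEF B12. With a minimum of 5 for −log10 q they were -1.70, 2.19 and 0.29. With a pseudocount of 0.01 they were -0.80, 1.12 and 0.23, and with 0.2 they were -0.48, 0.69 and 0.16. Without division by tags they were -0.68, 0.82 and 0.065, with fold enrichment -0.68, 0.88 and 0.16, over bases in a peak in all 4 libraries -0.38, 0.54 and 0.18, and with all 43 genes -0.67, 0.95 and 0.20.

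The median of the remodeler genes minus that of all marked genes, -0.00 from MEF to OSKM and -0.01 from OSKM to OSKM B12, took both signs: -0.69 and 0.43 at that minimum for −log10 q, 0.065 and -0.074 with a pseudocount of 0.01, -0.044 and 0.040 with 0.2, -0.056 and 0.0087 over shared bases, and -0.61 and 0.75 without the filter, where unmarked genes enter. Without division by tags the second was -0.027.

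The mean covered share in OSKM was 0.729 of that in MEF, 0.281 with the stricter q and 0.774 with peaks joined. In OSKM B12 it was 1.44 times that in OSKM, 4.15 with the stricter q and 1.35 with peaks joined. Marking by the mean over the 4 libraries, added after the data were seen, moved no value beyond counting error. A gene without a peak has no enrichment detectable at this depth.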
